A study of Mus musculus with 18 samples.

Results

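The genes described here are a set of 41 interferon-stimulated, pathogen-sensing and MHC class I antigen presentation genes, listed by symbol for their known function. The list was drawn up with earlier results of these data known, so its counts beside those of all genes are no independent test. A gene counted as measured when the array held a probe set annotated to it alone, and where there were several the one with the highest mean was used. By this rule 36 of the 41 genes were measured, among 19937 genes in all. Isg15, Gbp2, H2-K1 and H2-D1 were matched only by probe sets annotated to several genes and Ifi44 by none, so these 5 genes are not analysed here. What follows on MHC class I therefore concerns its light chain and the supply of peptides, not the heavy chains on the list.

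Type I interferons bind a receptor made of Ifnar1 and Ifnar2, which signals through Jak1 and Tyk2 to a complex that holds Stat2 and Irf9. This complex binds the interferon-stimulated response element (ISRE) in the promoters of genes that block viral entry, translation and replication. MHC class I molecules carry peptides, cut by the immunoproteasome and pumped by the Tap transporter, to the cell surface. Pluripotent cells are known for a weak interferon response and low MHC class I levels, while some genes of the Ifitm family are abundant in them.

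Expression was measured on 18 mouse arrays, 3 in each of 6 groups. The 2i converted EOS3F-24 cells were partial iPS cells of line EOS3F-24 treated with an inhibitor of MEK at 2 uM and one of GSK at 12 uM (the pair is called 2i) in ES medium with LIF. The partial EOS3F-24 cells were the same line without 2i. The full iPS cells were of the lines EOS3F-28 and EOS3F-29, and the ES cells were of the line J1. The reference cells were low-passage primary embryonic fibroblasts (MEFs) of CD1 mice. Each iPS line is 1 clone, and all EOS3F groups were kept under puromycin at 1 ug/mL, which the labels do not give for J1 cells or MEFs. iPS and J1 cells were grown on arrested feeder cells with LIF, and MEFs without either. The labels do not describe feeders for the 2i step on its own, the strain of the iPS lines, or what EOS3F stands for.

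Levels are on the log2 scale, where a difference of 1 is 2-fold. The labels do not say that the arrays of a group came from separate cultures. If they did not, the p-values below measure technical spread only. The labels were checked with pluripotency genes: the mean of 10 such genes was 8.67 to 8.94 in 2i converted, 5.15 to 5.69 in partial, 8.05 to 8.42 in EOS3F-28, 7.95 to 8.42 in EOS3F-29, 8.67 to 8.97 in J1 and 3.51 to 3.61 in MEF arrays. The mean of 24 fibroblast genes, called feeder signal below, was 6.09 to 8.07 on the arrays of iPS and J1 cells (called feeder-grown) and 8.83 to 9.01 on MEF arrays. It was highest on the replicate 1 array in all 5 feeder-grown groups, at 7.20 to 8.07. The term feeder-grown includes 2i converted cells, for which feeders in the 2i step are not described. Where the fibroblast RNA on these arrays came from was not tested. The mean of 12 macrophage genes was 3.59 to 3.78 on feeder-grown arrays and 3.67 to 4.38 on MEF arrays, with the top value on MEF replicate 3, where Lyz2 was at 6.22 and Cd53 at 6.21. Fewer cells of a type and less RNA per cell cannot be told apart in such bulk samples.

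RefSeq promoter windows (GRCm38.p6) were found for 29 of the 36 genes, and their 250 bases upstream of the gene start were searched on both strands for the ISRE core GAAANNGAAA. The core was present in 11 of the 29 genes (37.9%), against 3.46% of the 27025 genes in the table. Sequences of 4 genes that hold it are shown, with 30 bases on either side and the core in capitals, because they stand for patterns described below: Ifit1 and Ifit3 had the steepest slopes on feeder signal, Bst2 was above MEFs on every feeder-grown array, and B2m was near 9 in all groups. The upstream bases of Ifitm1, which had the largest difference of the 36 genes from MEFs in 2i converted, full iPS and J1 cells but not in partial cells, are shown beside them. They lie, in this order, at chr19:34640755-34640843 (+), chr19:34583343-34583446 (+), chr8:71537557-71537632 (-), chr2:122147518-122147587 (+) and chr7:140967956-140968075 (+).
Ifit1: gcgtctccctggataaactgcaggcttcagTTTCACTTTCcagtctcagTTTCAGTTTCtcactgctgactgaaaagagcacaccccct
Ifit3: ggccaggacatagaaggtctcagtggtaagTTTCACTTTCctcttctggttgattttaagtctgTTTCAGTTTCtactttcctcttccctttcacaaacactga
Bst2: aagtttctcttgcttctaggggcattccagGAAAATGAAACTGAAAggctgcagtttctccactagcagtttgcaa
B2m: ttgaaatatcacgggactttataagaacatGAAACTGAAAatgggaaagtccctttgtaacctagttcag
Ifitm1: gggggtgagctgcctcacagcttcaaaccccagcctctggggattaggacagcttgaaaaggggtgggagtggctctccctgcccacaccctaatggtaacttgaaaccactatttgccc
Ifit1 and Ifit3 each hold 2 cores, read from the opposite strand, which start 104 and 85 bases before the gene start in Ifit1 and 156 and 122 before it in Ifit3. Bst2 holds 2 overlapping cores, at 130 and 124, and B2m holds 1, at 139. No core was found in the 250 bases upstream of Ifitm1, which says only that these letters are not in that window. A match describes the letters and does not show that a factor binds there.

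The 36 genes ranged from Ifitm3 and B2m, with means over all arrays of 9.40 and 9.21, to Mx1 at 2.89. Only these first 2 genes averaged at least 8, and 19 averaged at least 5. Mx1, Tlr3, Mx2 and Oas3 averaged under 4. The group mean was lowest in MEFs for 28 of the 36 genes and highest in MEFs for 1, Ifit2. Partial EOS3F-24 cells had the highest mean of the 6 groups for 18 genes. Such ranks were not counted over all genes, so they do not set the 36 genes apart. The heat map shows every value.

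**Figure D1:**
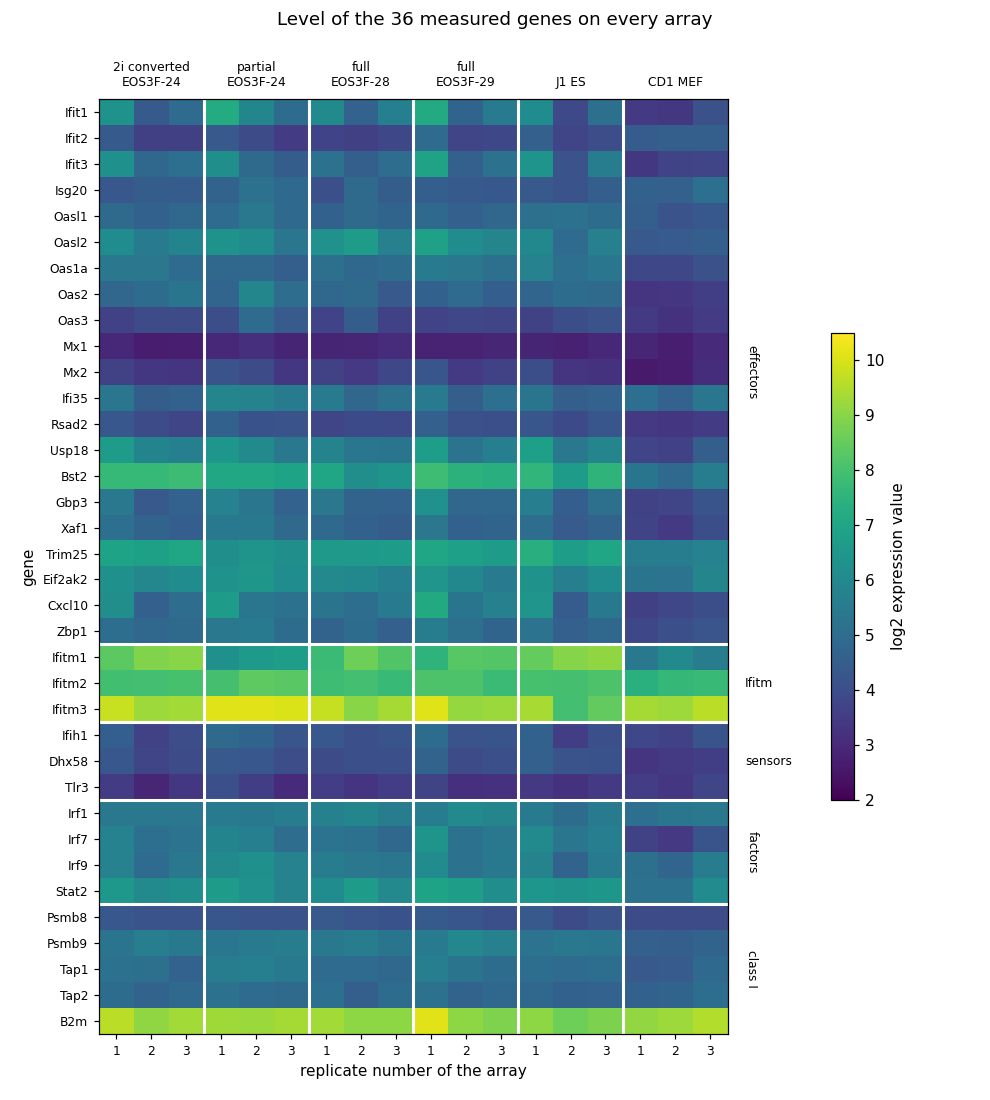
Heat map of the 36 measured genes (rows, grouped by role) on the 18 arrays (columns, by group and replicate number), coloured by log2 expression value. MEF columns are dark for most effectors, and replicate 1 columns of the feeder-grown groups are the brightest of their group for Ifit1, Ifit3 and Usp18.

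Most of the genes were more highly expressed in the iPS and J1 cultures than in MEFs. By the labels these cultures had feeder cells and LIF, though feeders are not described for the 2i step on its own. MEFs had neither, so cell type, feeder RNA and culture conditions cannot be told apart. A rise in a group below refers to its whole culture. By limma's moderated test with Benjamini-Hochberg adjustment over all genes (called at an adjusted p under 0.05), 21 of 36 rose in 2i converted cells, 24 in partial cells, 24 in full iPS cells (the mean of both lines) and 23 in J1 cells. Of all genes tested, 19.6%, 13.7%, 17.1% and 20.6% were called higher in these 4 comparisons. No member fell in 2i converted, partial or full iPS cells, where 17.9%, 10% and 17.8% of all genes fell, and Ifitm3 alone fell in J1 cells, where 17.5% did. Rises of at least 2-fold were called for 11, 12, 13 and 12 of the genes, against 5.08%, 2.91%, 3.09% and 5% of all genes. The median difference of the 36 genes was 0.63 in 2i converted, 0.86 in partial, 0.67 in full iPS and 0.73 in J1 cells, against 0.03, 0.04, 0.03 and 0.06 over all genes. These comparisons share the same 3 MEF arrays. Without MEF replicate 1 the number called was 13 in 2i converted and 15 in J1 cells. Of all 19937 genes 6513 and 6720 were called there, against 7467 and 7585 with all arrays. Centring on housekeeping genes gave 13 rises and 2 falls in 2i converted cells, with 7072 of all genes called.

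**Figure D2:**
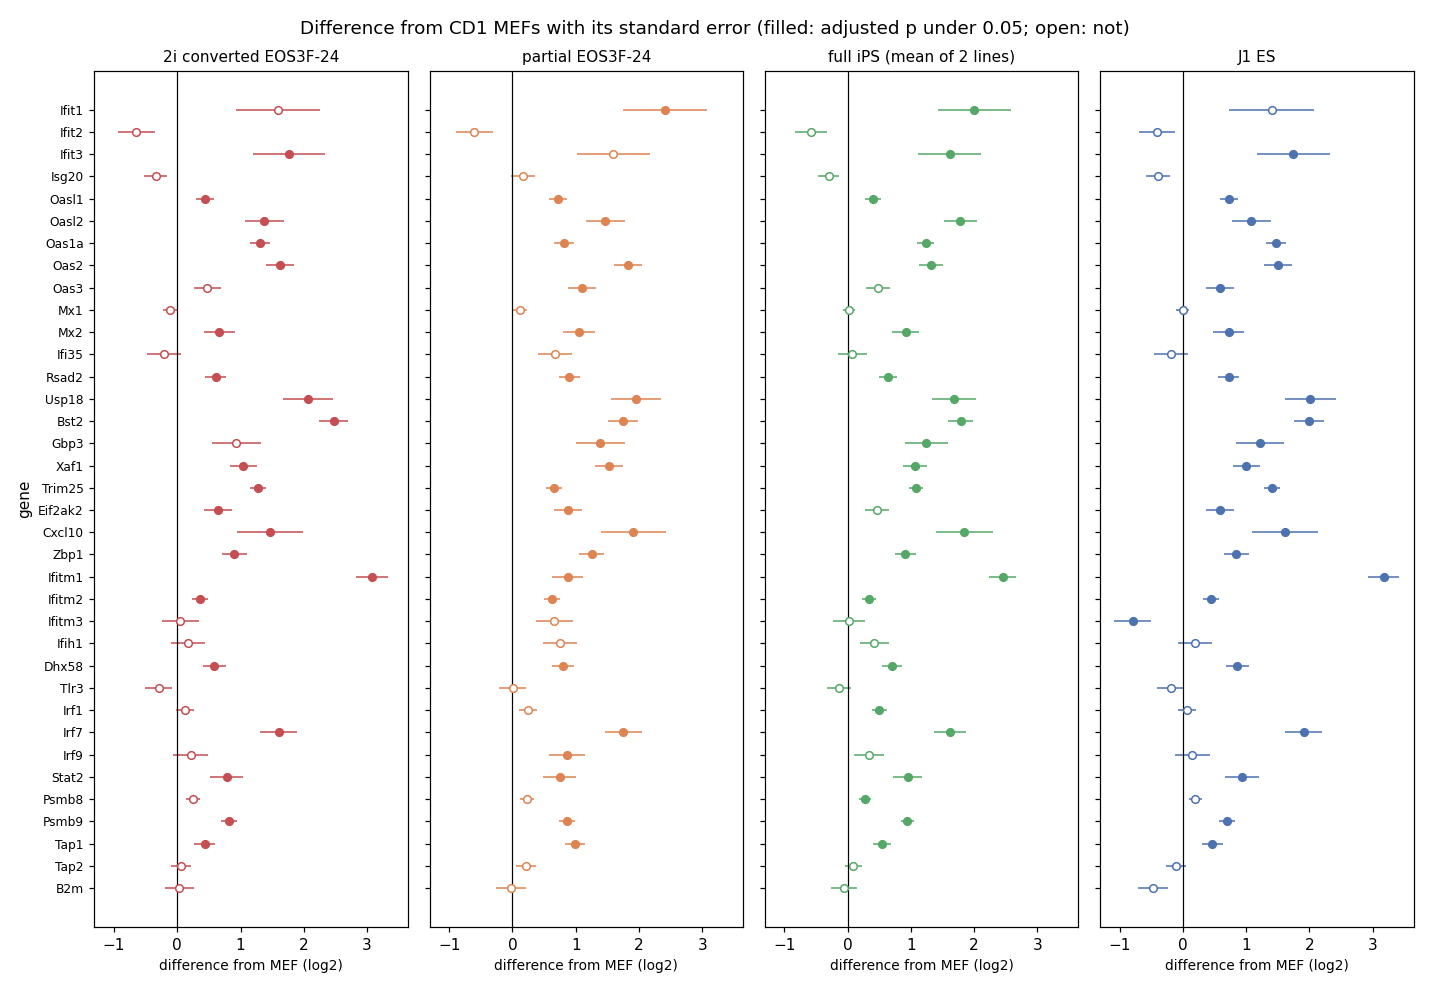
Difference from CD1 MEFs in log2 units (x axis, with its standard error) for each of the 36 genes (rows) in 2i converted, partial, full iPS and J1 cells (panels). Filled points are called at an adjusted p under 0.05. Most points lie to the right of 0, and Ifitm1 lies at 3.08, 0.87, 2.45 and 3.17 in the 4 panels.

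The Ifitm proteins are membrane proteins that hinder the fusion of viruses with cell membranes. Ifitm1 stood at 8.36, 8.90 and 8.98 in 2i converted, 6.26, 6.58 and 6.78 in partial, 7.80, 8.62 and 8.19 in EOS3F-28, 7.54, 8.30 and 8.22 in EOS3F-29, 8.5, 8.94 and 9.08 in J1 and 5.39, 6.03 and 5.57 in MEF arrays. The 12 arrays of 2i converted, full iPS and J1 cells were all above the 3 partial arrays, which were all above the MEF arrays. Against MEFs, Ifitm1 rose by 3.08 (SE 0.25, adjusted p = 5.28e-08) in 2i converted, 0.87 (SE 0.25, adjusted p = 0.0146) in partial, 2.45 (SE 0.21, adjusted p = 1.32e-07) in full iPS and 3.17 (SE 0.25, adjusted p = 3.63e-08) in J1 cells. The partial call was lost without partial replicate 3, MEF replicate 1 or MEF replicate 3, with adjusted p up to 0.0762. A second Ifitm1 probe set gave differences of 3.61, 1.44, 3.16 and 3.86 in the same order of groups. The means ran 8.84 in J1, 8.74 in 2i converted, 8.21 in EOS3F-28, 8.02 in EOS3F-29, 6.54 in partial and 5.67 in MEF arrays, and among the first 4 of these each group's arrays overlap with the next.

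Ifitm2 and Ifitm3 were abundant in every group. Ifitm2 averaged 7.97 in 2i converted, 8.23 in partial, 7.86 in EOS3F-28, 8.02 in EOS3F-29, 8.04 in J1 and 7.60 in MEF arrays. It rose by 0.36 (SE 0.13, adjusted p = 0.0311) in 2i converted, 0.62 (SE 0.13, adjusted p = 0.00136) in partial, 0.33 (SE 0.11, adjusted p = 0.0245) in full iPS and 0.44 (SE 0.13, adjusted p = 0.0104) in J1 cells. The 2i converted call was lost without 2i converted replicate 2, 2i converted replicate 3 or MEF replicate 1 (adjusted p up to 0.155), the full iPS call without EOS3F-28 replicate 2, EOS3F-29 replicate 2 or MEF replicate 1 (up to 0.17) and the J1 call without MEF replicate 1 (0.0641). Its other 2 probe sets gave 0.15 and 0.04 in 2i converted, 0.40 and 0.51 in partial, -0.01 and 0.02 in full iPS, and 0.29 and 0.16 in J1 cells.

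Ifitm3 was at 9.77, 9.25 and 9.32 in 2i converted, 10.07, 10.11 and 10.02 in partial, 9.74, 9.0 and 9.36 in EOS3F-28, 10.09, 9.16 and 9.21 in EOS3F-29, 9.39, 7.97 and 8.47 in J1 and 9.34, 9.24 and 9.62 in MEF arrays. All 3 partial arrays were above all MEF arrays, while the 2i converted, full iPS and J1 arrays overlapped with MEFs. It fell by 0.79 (SE 0.29, adjusted p = 0.0415) in J1 cells, a call lost without J1 replicate 2, J1 replicate 3, MEF replicate 1, MEF replicate 2 or MEF replicate 3 (adjusted p up to 0.243). Its differences from MEFs were 0.04 (SE 0.29) in 2i converted, 0.66 (SE 0.29) in partial and 0.03 (SE 0.25) in full iPS cells, and none of these passed the test.

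The interferon-induced effectors were the largest group, with 21 measured genes. Against MEFs 14 rose in 2i converted, 16 in partial, 15 in full iPS and 16 in J1 cells, and none fell. Of all genes, 19.6%, 13.7%, 17.1% and 20.6% rose and 17.9%, 10%, 17.8% and 17.5% fell in these comparisons. Bst2 codes for tetherin, which holds budding virus at the cell surface. It was at 7.69, 7.69 and 7.83 in 2i converted, 7.06, 7.05 and 6.91 in partial, 7.03, 6.21 and 6.40 in EOS3F-28, 7.86, 7.45 and 7.35 in EOS3F-29, 7.59, 6.66 and 7.52 in J1 and 5.30, 4.91 and 5.59 in MEF arrays. Every feeder-grown array was above every MEF array. Bst2 rose 5.54-fold in 2i converted (adjusted p = 3.73e-07), 3.35-fold in partial (adjusted p = 2.95e-05), 3.44-fold in full iPS (adjusted p = 2.71e-06) and 3.99-fold in J1 cells (adjusted p = 3.63e-06).

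Usp18, a protease that removes Isg15 from proteins and dampens interferon receptor signalling, was at 6.70, 5.85 and 5.67 in 2i converted, 6.46, 6.03 and 5.39 in partial, 5.81, 5.35 and 5.30 in EOS3F-28, 6.76, 5.25 and 5.67 in EOS3F-29, 6.79, 5.41 and 5.88 in J1 and 3.78, 3.68 and 4.56 in MEF arrays. The groups did not overlap with MEFs, and replicate 1 was the highest array in each feeder-grown group. Usp18 rose by 2.06 (SE 0.40, adjusted p = 0.000462) in 2i converted, 1.95 (SE 0.40, adjusted p = 0.00142) in partial, 1.68 (SE 0.34, adjusted p = 0.000887) in full iPS and 2.02 (SE 0.40, adjusted p = 0.000568) in J1 cells. Oas2, which makes the 2-5A signal that activates RNase L, was at 4.81, 5.0 and 5.30 in 2i converted, 4.78, 5.89 and 5.04 in partial and 3.30, 3.35 and 3.56 in MEF arrays. It rose by 1.63 (SE 0.22, adjusted p = 1.67e-05) in 2i converted and by 1.83 (SE 0.22, adjusted p = 9.95e-06) in partial cells. Full iPS and J1 arrays read 4.37 to 5.01, and Oas2 was called there too.

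Ifit1, which binds foreign RNA and blocks its translation, was at 6.32, 4.42 and 4.96 in 2i converted, 7.24, 5.91 and 5.01 in partial, 6.05, 4.69 and 5.68 in EOS3F-28, 7.19, 4.74 and 5.51 in EOS3F-29, 6.12, 3.87 and 5.15 in J1 and 3.43, 3.39 and 4.11 in MEF arrays. Replicate 1 was the highest array in all 5 feeder-grown groups. The difference from MEFs was 1.59 (SE 0.67, adjusted p = 0.0718) in 2i converted, 2.41 (SE 0.67, adjusted p = 0.0128) in partial, 2.00 (SE 0.58, adjusted p = 0.0113) in full iPS and 1.40 (SE 0.67, adjusted p = 0.111) in J1 cells, so that the partial and full iPS cells passed. Leaving out partial replicate 1 ended the partial call (adjusted p = 0.0727), and leaving out 2i converted replicate 2 or J1 replicate 2 gave calls in those cells (adjusted p = 0.0493 and 0.0365).

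Ifit3, which partners Ifit1, was at 6.25, 4.86 and 5.11 in 2i converted, 6.41, 4.18 and 5.56 in J1 and 3.39, 3.74 and 3.78 in MEF arrays. It rose by 1.77 (SE 0.57, adjusted p = 0.0209) in 2i converted and 1.74 (SE 0.57, adjusted p = 0.0222) in J1 cells, and was called in full iPS cells too, while its difference of 1.60 (SE 0.57, adjusted p = 0.0524) in partial cells did not pass. Without 2i converted replicate 1 or MEF replicate 1 the 2i converted call was lost (adjusted p up to 0.102), and without J1 replicate 1, J1 replicate 3 or MEF replicate 1 the J1 call (up to 0.117). Cxcl10, a chemokine that draws T cells, was at 6.71, 5.33 and 5.16 in partial, 5.26, 5.07 and 5.49 in EOS3F-28, 7.15, 5.31 and 5.71 in EOS3F-29, 6.45, 4.46 and 5.42 in J1 and 3.61, 3.82 and 4.04 in MEF arrays. It rose 3.76-fold in partial (adjusted p = 0.0111), 3.58-fold in full iPS (adjusted p = 0.0035) and 3.07-fold in J1 cells (adjusted p = 0.0193). The partial call ended without partial replicate 1 (adjusted p = 0.066) and the J1 call without J1 replicate 1 or MEF replicate 1 (up to 0.109).

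Oasl2, a relative of the Oas enzymes, was at 6.29, 6.67 and 5.70 in EOS3F-28, 6.85, 6.13 and 5.86 in EOS3F-29 and 4.37, 4.44 and 4.59 in MEF arrays, with no overlap. It rose by 1.78 (SE 0.27, adjusted p = 4.66e-05) in full iPS cells. The 2i converted, partial and J1 arrays, with means of 5.84, 5.93 and 5.55, were above all MEF arrays too. Of the other effectors, Mx1, Ifit2, Isg20 and Ifi35 passed in no comparison with MEFs. Mx1, a GTPase that blocks influenza virus, read 2.68 to 3.14 on feeder-grown and 2.72 to 3.03 on MEF arrays, near the bottom of the scale. Ifit2, a relative of Ifit1, averaged 3.89 in 2i converted, 3.93 in partial, 3.72 in EOS3F-28, 4.20 in EOS3F-29, 4.12 in J1 and 4.53 in MEF arrays.

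**Figure D3:**
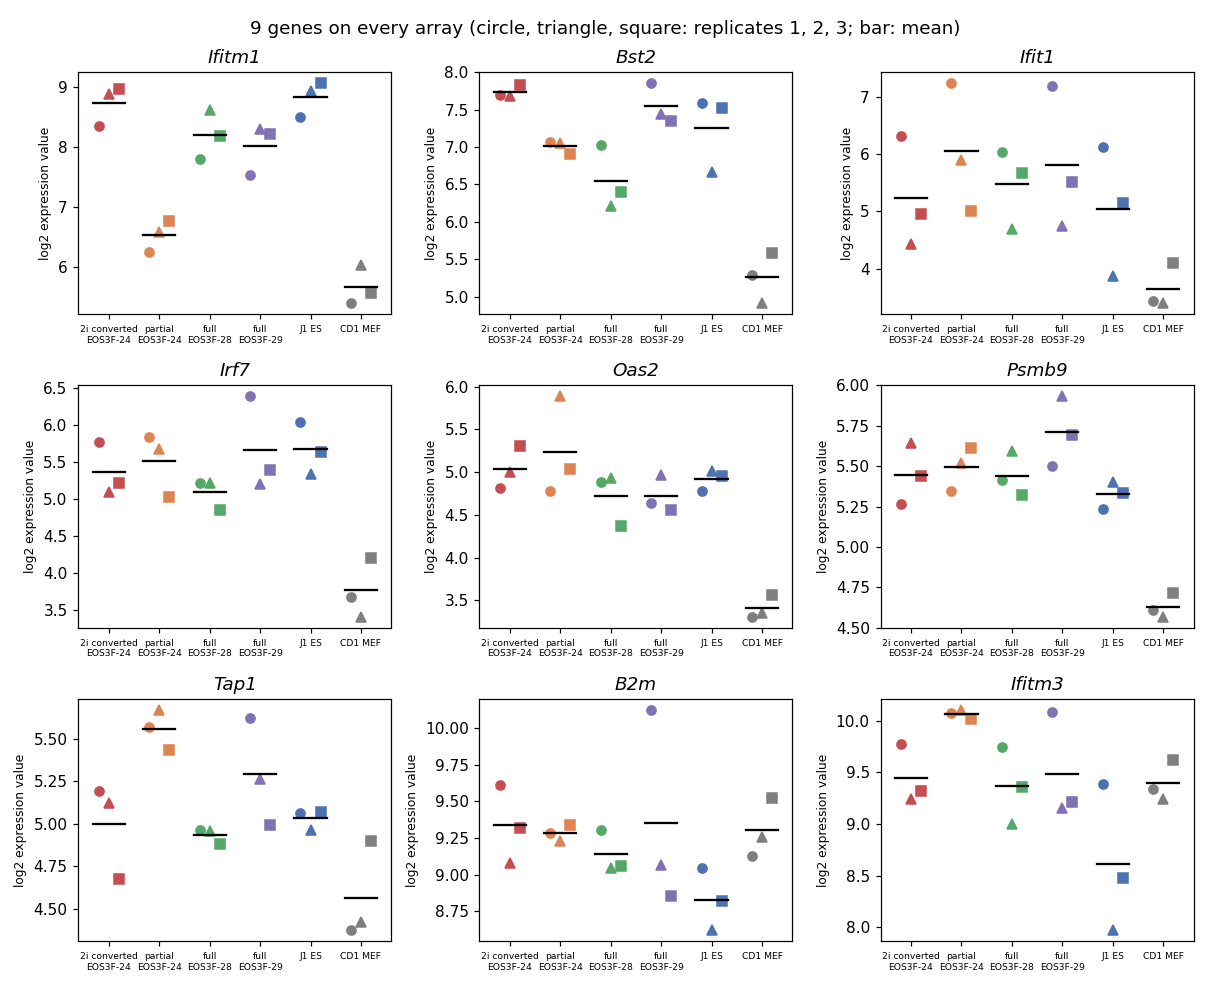
Log2 expression value (y axis) of 9 genes on each array, by group (x axis, MEFs at the right), with the symbol marking the replicate number and the bar the group mean. Ifitm1 has partial cells well below the other feeder-grown groups, Psmb9 separates every feeder-grown array from MEFs, and B2m is near 9 in all groups.

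Among the transcription factors, Irf7, which amplifies interferon gene transcription, was at 5.78, 5.10 and 5.22 in 2i converted, 5.84, 5.68 and 5.03 in partial, 5.22, 5.21 and 4.85 in EOS3F-28, 6.39, 5.20 and 5.39 in EOS3F-29, 6.04, 5.35 and 5.63 in J1 and 3.68, 3.41 and 4.21 in MEF arrays. All feeder-grown arrays were above all MEF arrays. Irf7 rose by 1.60 (SE 0.29, adjusted p = 0.000296) in 2i converted, 1.75 (SE 0.29, adjusted p = 0.000248) in partial and 1.91 (SE 0.29, adjusted p = 5.56e-05) in J1 cells, and it was called in full iPS cells too. Stat2, part of the ISRE-binding complex, averaged 6.27 in 2i converted, 6.24 in partial, 6.28 in EOS3F-28, 6.62 in EOS3F-29, 6.43 in J1 and 5.49 in MEF arrays. It rose by 0.78 (SE 0.26, adjusted p = 0.0255) in 2i converted, 0.75 (SE 0.26, adjusted p = 0.046) in partial, 0.95 (SE 0.23, adjusted p = 0.00297) in full iPS and 0.93 (SE 0.26, adjusted p = 0.00845) in J1 cells. It was at 5.22, 5.16 and 6.11 in MEF arrays, the last being the array with the high macrophage genes, whose part in the result was not tested. The 2i converted call was lost without 2i converted replicate 1, 2i converted replicate 3, MEF replicate 1 or MEF replicate 2 (adjusted p up to 0.116) and the partial call without partial replicate 1, partial replicate 2, MEF replicate 1 or MEF replicate 2 (up to 0.192).

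Irf9, the DNA-binding part of the same complex, averaged 5.38 in 2i converted, 6.03 in partial, 5.43 in EOS3F-28, 5.58 in EOS3F-29, 5.32 in J1 and 5.17 in MEF arrays. It rose in partial cells, by 0.86 (SE 0.28, adjusted p = 0.032), and lost this call without partial replicate 1, partial replicate 2, MEF replicate 1 or MEF replicate 2 (adjusted p up to 0.135). Its differences from MEFs were 0.21 (SE 0.28) in 2i converted, 0.34 (SE 0.24) in full iPS and 0.15 (SE 0.28) in J1 cells, which did not pass. Irf1, an early target of interferon gamma, averaged 5.40 in 2i converted, 5.51 in partial, 5.72 in EOS3F-28, 5.83 in EOS3F-29, 5.34 in J1 and 5.27 in MEF arrays. It rose by 0.50 (SE 0.12, adjusted p = 0.00337) in full iPS cells, while differences of 0.12 (SE 0.14) in 2i converted, 0.24 (SE 0.14) in partial and 0.07 (SE 0.14) in J1 cells did not pass. A second Irf1 probe set differed by 0.05 in full iPS cells.

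Of the RNA sensors, Dhx58 (LGP2) rose in all 4 comparisons with MEFs, while Ifih1 (MDA5) and Tlr3 passed in none. Tlr3, an endosomal receptor for double-stranded RNA, read 2.90 to 4.06 on feeder-grown and 3.36 to 3.77 on MEF arrays. Its differences were -0.29 (SE 0.22) in 2i converted, 0.00 (SE 0.22) in partial, -0.14 (SE 0.19) in full iPS and -0.19 (SE 0.22) in J1 cells.

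Of the 5 class I genes, Psmb9 and Tap1 rose in all 4 comparisons with MEFs and Psmb8 in full iPS cells. Psmb9, a catalytic subunit of the immunoproteasome, was at 5.26, 5.64 and 5.44 in 2i converted, 5.35, 5.52 and 5.61 in partial, 5.41, 5.60 and 5.32 in EOS3F-28, 5.50, 5.93 and 5.70 in EOS3F-29, 5.24, 5.40 and 5.34 in J1 and 4.61, 4.57 and 4.72 in MEF arrays. No feeder-grown array overlapped with MEFs. Psmb8, another such subunit, read 3.97 to 4.40 on feeder-grown and 3.95 to 3.98 on MEF arrays. It rose by 0.28 (SE 0.09, adjusted p = 0.0288) in full iPS cells, which was lost without EOS3F-28 replicate 1, EOS3F-29 replicate 1, MEF replicate 1, MEF replicate 2 or MEF replicate 3 (adjusted p up to 0.0845). The differences of 0.25 (SE 0.11) in 2i converted, 0.23 (SE 0.11) in partial and 0.20 (SE 0.11) in J1 cells did not pass.

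Tap1, a subunit of the peptide transporter, was at 5.19, 5.12 and 4.68 in 2i converted, 5.57, 5.67 and 5.43 in partial, 4.97, 4.96 and 4.88 in EOS3F-28, 5.62, 5.26 and 5.0 in EOS3F-29, 5.06, 4.96 and 5.07 in J1 and 4.37, 4.42 and 4.90 in MEF arrays. The partial group had the highest mean, EOS3F-29 replicate 1 lay among its arrays, and the 2i converted and EOS3F-28 groups each overlapped with MEFs through 1 array. Tap1 rose by 0.43 (SE 0.16, adjusted p = 0.0467) in 2i converted, 0.99 (SE 0.16, adjusted p = 0.000221) in partial, 0.55 (SE 0.14, adjusted p = 0.00549) in full iPS and 0.46 (SE 0.16, adjusted p = 0.0325) in J1 cells. The 2i converted call was lost without 2i converted replicate 1, 2i converted replicate 2, MEF replicate 1 or MEF replicate 2 (adjusted p up to 0.182) and the J1 call without J1 replicate 1, J1 replicate 2, J1 replicate 3, MEF replicate 1 or MEF replicate 2 (up to 0.136). Tap2, the partner subunit, passed in no comparison with MEFs.

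B2m, the light chain of class I molecules, was at 9.61, 9.08 and 9.32 in 2i converted, 9.28, 9.23 and 9.34 in partial, 9.31, 9.05 and 9.06 in EOS3F-28, 10.12, 9.07 and 8.86 in EOS3F-29, 9.05, 8.62 and 8.82 in J1 and 9.13, 9.26 and 9.52 in MEF arrays. Its differences from MEFs were 0.03 (SE 0.23) in 2i converted, -0.02 (SE 0.23) in partial, -0.06 (SE 0.20) in full iPS and -0.47 (SE 0.23) in J1 cells, and none passed the test. All 3 J1 arrays were below all MEF arrays.

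Setting the 2i converted cells against the partial cells of their line asks what differed with the 2i treatment. Of the 36 genes 4 rose (9.36% of all genes did) and 3 fell (13% of all genes did), with a median of -0.22 against 0.00 over all genes. Neither count stands out from its share, so the counts are no result about the set. Ifitm1 rose by 2.21 (SE 0.25, adjusted p = 3.86e-06), with every 2i converted array above every partial one. Trim25, a ubiquitin ligase that activates the RNA sensor RIG-I, was at 6.93, 6.82 and 6.99 in 2i converted and 6.24, 6.42 and 6.24 in partial arrays and rose by 0.61 (SE 0.13, adjusted p = 0.0018). These 2 calls held without any 1 array. Bst2 rose by 0.73 (SE 0.24, adjusted p = 0.0334) and Oas1a, another 2-5A synthetase, at 5.37, 5.37 and 4.99 in 2i converted and 4.82, 4.83 and 4.59 in partial arrays, by 0.50 (SE 0.16, adjusted p = 0.0304).

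Ifi35, an interferon-induced protein, fell by 0.88 (SE 0.27, adjusted p = 0.0247), at 5.34, 4.50 and 4.64 in 2i converted and 5.87, 5.79 and 5.47 in partial arrays. Oas3, at 3.66, 3.93 and 3.99 in 2i converted and 4.05, 4.97 and 4.44 in partial arrays, fell by 0.63 (SE 0.22, adjusted p = 0.0496), and Tap1 by 0.56 (SE 0.16, adjusted p = 0.0194). Single arrays moved these calls: the number called was 4 without 2i converted replicate 1, 3 without 2i converted replicate 2 or 3, 2 without partial replicate 2 and 4 without partial replicate 3, and 2 to 5 over all 6 fits. Of all genes 3208 to 4456 were called in these fits, against 4456 with all arrays. Bst2 was lost in all 6 (adjusted p up to 0.104), and Oas3 in 5, without 2i converted replicate 1, 2i converted replicate 2, 2i converted replicate 3, partial replicate 2 or partial replicate 3 (up to 0.286). Ifi35 was lost without 2i converted replicate 2, 2i converted replicate 3, partial replicate 1 or partial replicate 2 (up to 0.125), Oas1a without 2i converted replicate 1, 2i converted replicate 2, partial replicate 2 or partial replicate 3 (up to 0.123) and Tap1 without 2i converted replicate 3, partial replicate 1 or partial replicate 2 (up to 0.127). With the replicate number as a block, fitted as a shift shared by all groups, 12 genes were called. They were the 4 rises, against 11% of all genes, and 8 falls, against 15.2%. The deviations of this pair went with replicate number in all 3 replicates, which most comparisons did not reach. The block is therefore given as an alternative only. The falls added by the block were Ifih1, Ifitm3, Irf9, Isg20 and Xaf1. Centring on housekeeping genes shifted the median of all genes by -0.17 here and gave 2 rises and 11 falls. Of all 19937 genes 5186 were called in that fit, against 4456 in the main fit.

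The other genes given in every comparison did not pass between 2i converted and partial cells. Their differences were -0.82 (SE 0.67) for Ifit1, -0.26 (SE 0.13) for Ifitm2, -0.62 (SE 0.29) for Ifitm3, -0.12 (SE 0.14) for Irf1, -0.65 (SE 0.28) for Irf9, 0.03 (SE 0.26) for Stat2, -0.30 (SE 0.22) for Tlr3, 0.02 (SE 0.11) for Psmb8 and 0.05 (SE 0.23) for B2m. All 2i converted Ifitm3 arrays were below all partial ones.

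Partial cells differed from full iPS cells in 5 of the 36 genes, with 2 higher and 3 lower, where 12.8% and 5.78% of all genes were called. Neither count stands out from its share, so these counts too are no result about the set. The median was 0.14 against 0.01 over all genes. Oas3, at 4.05, 4.97 and 4.44 in partial, 3.70, 4.50 and 3.66 in EOS3F-28 and 3.72, 3.82 and 3.79 in EOS3F-29 arrays, was higher by 0.62 (SE 0.19, adjusted p = 0.0288), and Tap1 by 0.44 (SE 0.14, adjusted p = 0.0368), and in both the groups overlapped. The difference was -1.57 (SE 0.21, adjusted p = 4.03e-05) for Ifitm1, -0.42 (SE 0.14, adjusted p = 0.0378) for Oas1a and -0.42 (SE 0.11, adjusted p = 0.0129) for Trim25. Ifitm1 held without any 1 array. In the 9 fits that leave out 1 array, Tap1 was lost in 8, those without partial replicate 1, partial replicate 2, partial replicate 3, EOS3F-28 replicate 1, EOS3F-28 replicate 2, EOS3F-28 replicate 3, EOS3F-29 replicate 2 or EOS3F-29 replicate 3 (adjusted p up to 0.17). Oas1a was lost in 7, without partial replicate 1, partial replicate 2, partial replicate 3, EOS3F-28 replicate 1, EOS3F-28 replicate 3, EOS3F-29 replicate 1 or EOS3F-29 replicate 2 (up to 0.181). Oas3 was lost in 4, without partial replicate 2, partial replicate 3, EOS3F-28 replicate 1 or EOS3F-28 replicate 3 (up to 0.263), and Trim25 in 2, without partial replicate 1 or partial replicate 3 (up to 0.0634). The count was 2 without partial replicate 2, EOS3F-28 replicate 1 or EOS3F-28 replicate 3, 1 without partial replicate 3, 3 without EOS3F-29 replicate 2, and 11 without EOS3F-29 replicate 1, the feeder-grown array with the highest feeder signal. Of all genes 2669 were called without partial replicate 3 and 4402 without EOS3F-29 replicate 1, against 3702 with all arrays.

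With feeder signal as a covariate over the 15 feeder-grown arrays, 14 genes were called in this comparison, 11 of them higher and 3 lower in partial cells. Of all 19937 genes 4901 were called in that fit, against 3702 without the covariate. The additional ones were Eif2ak2, Ifi35, Ifih1, Ifit1, Ifitm3, Irf9, Isg20, Oas2 and Xaf1, all higher in partial cells. Differences without the covariate that did not pass were 0.41 (SE 0.58) for Ifit1, 0.29 (SE 0.11) for Ifitm2, 0.64 (SE 0.25) for Ifitm3, -0.26 (SE 0.12) for Irf1, 0.53 (SE 0.24) for Irf9, -0.20 (SE 0.23) for Stat2, 0.14 (SE 0.19) for Tlr3, -0.05 (SE 0.09) for Psmb8 and 0.04 (SE 0.20) for B2m. The other Ifitm2 probe sets gave 0.40 and 0.48. By limma with adjustment over all probe sets the second of these passed (adjusted p = 0.0547 and 0.0235).

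None of the 36 genes was called between 2i converted and full iPS cells by limma, where 3.96% of all genes were higher and 1.2% lower. At an unadjusted p under 0.05 there were 3, and a trended robust limma fit called 0. Ifitm1 differed by 0.63 (SE 0.21, adjusted p = 0.107) and Irf1 by -0.38 (SE 0.12, adjusted p = 0.0871). Without 2i converted replicate 1 Ifitm1 was called (adjusted p = 0.0487), and without EOS3F-29 replicate 1 Irf1 was (adjusted p = 0.0393). Over single arrays left out, 1 gene was called without 2i converted replicate 1 or EOS3F-28 replicate 1, 2 without EOS3F-29 replicate 1 and 0 otherwise. The rest given in every comparison lay between -0.41 for Ifit1 and 0.09 for B2m.

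Full iPS cells differed from J1 cells in Irf1, which was higher by 0.44 (SE 0.12, adjusted p = 0.0482), where 1.29% of all genes were called higher and 3.47% lower. It was at 5.73, 5.89 and 5.55 in EOS3F-28, 5.58, 6.04 and 5.87 in EOS3F-29 and 5.52, 5.02 and 5.48 in J1 arrays, without overlap. The call was lost without EOS3F-28 replicate 1, EOS3F-28 replicate 2, EOS3F-29 replicate 2, EOS3F-29 replicate 3, J1 replicate 2 or J1 replicate 3 (adjusted p up to 0.283). Ifitm1 differed by -0.73 (SE 0.21, adjusted p = 0.0633) and Ifitm3 by 0.82 (SE 0.25, adjusted p = 0.0801). Ifitm1 was called without EOS3F-28 replicate 2, EOS3F-29 replicate 2 or J1 replicate 1, and Ifitm3 without J1 replicate 1 (adjusted p down to 0.0309 and 0.00754). In all, 3 genes were called without J1 replicate 1 and 0 without EOS3F-28 replicate 1, EOS3F-29 replicate 3 or J1 replicate 3. The rest given in every comparison lay between -0.11 for Ifitm2 and 0.60 for Ifit1.

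Between the lines EOS3F-28 and EOS3F-29 limma called none of the 36 genes, where 0.301% of all genes were higher and 0.231% lower. At an unadjusted p under 0.05 there were 5, and the trended robust fit called 0. With the replicate block, which is shared by all groups, Bst2 was lower in EOS3F-28 (difference -1.0, SE 0.19, adjusted p = 0.00996). Every EOS3F-28 array was below every EOS3F-29 array for this gene. Without the block, 1 gene was called when EOS3F-28 replicate 1 was left out, and the genes given in every comparison lay between -0.36 for Tap1 and 0.18 for Ifitm1. In the block fit 0.522% of all genes were higher and 0.466% lower.

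The rest of the pathway was read from 4 further lists. Ifnb1, coding for interferon beta, read 2.58 to 3.13 on feeder-grown and 2.92 to 3.05 on MEF arrays, with differences from MEFs of -0.06 (SE 0.10) in 2i converted, -0.22 (SE 0.10) in partial, -0.03 (SE 0.09) in full iPS and -0.06 (SE 0.10) in J1 cells, none of which passed. Of the 17 ligand, receptor and signalling genes, 3 rose and 7 fell in 2i converted, 1 rose and 1 fell in partial, 3 rose and 7 fell in full iPS and 5 rose and 7 fell in J1 cells, all against MEFs. Beside these counts and those of the next lists against MEFs stand the shares of all genes: in 2i converted, 19.6% of all genes rose and 17.9% fell, in partial 13.7% and 10%, in full iPS 17.1% and 17.8% and in J1 cells 20.6% and 17.5%. Ifnar1 fell by 0.91 (SE 0.19, adjusted p = 0.000939) in 2i converted, 0.64 (SE 0.16, adjusted p = 0.0052) in full iPS and 0.80 (SE 0.19, adjusted p = 0.00262) in J1 cells. Ifnar2 fell by 1.09 (SE 0.25, adjusted p = 0.00226), 0.90 (SE 0.22, adjusted p = 0.00375) and 0.97 (SE 0.25, adjusted p = 0.00557) in the same cells. In partial cells the Ifnar1 difference of -0.31 (SE 0.19) and the Ifnar2 difference of -0.23 (SE 0.25) did not pass. Socs3, a feedback inhibitor of Jak signalling, had the largest rise of this list in J1 cells, at 1.64 (SE 0.15, adjusted p = 2.48e-07).

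Of 17 sensing genes, 9 were higher in partial than in full iPS cells and none lower, where 12.8% and 5.78% of all genes were. In 2i converted against partial cells 8 fell and none rose, where 13% of all genes fell and 9.36% rose. Ikbke, a kinase that phosphorylates interferon regulatory factors, was at 4.96, 4.20 and 4.54 in 2i converted, 6.16, 6.90 and 6.74 in partial, 5.28, 5.48 and 5.44 in EOS3F-28, 5.57, 4.63 and 4.69 in EOS3F-29, 4.89, 4.26 and 4.38 in J1 and 4.47, 4.40 and 4.71 in MEF arrays. All partial arrays were above all others. It was higher in partial cells by 2.07 (SE 0.25, adjusted p = 7.9e-06) against MEFs and by 1.42 (SE 0.21, adjusted p = 0.000117) against full iPS cells, and it fell by 2.03 (SE 0.25, adjusted p = 9.96e-06) in 2i converted against partial cells. Ifngr1, a chain of the interferon gamma receptor in the ligand and receptor list, was at 5.31, 4.66 and 4.75 in 2i converted and 6.16, 6.5 and 6.80 in partial arrays and fell by 1.58 (SE 0.18, adjusted p = 6.07e-06).

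Of 30 further interferon-stimulated genes, 16 rose and 3 fell in 2i converted, 15 rose and none fell in partial, 16 rose and 2 fell in full iPS and 16 rose and 4 fell in J1 cells, against MEFs, where 19.6%, 13.7%, 17.1% and 20.6% of all genes rose and 17.9%, 10%, 17.8% and 17.5% fell. Rtp4, an interferon-induced chaperone of membrane receptors, had the largest rise in 2i converted, full iPS and J1 cells, at 2.08 (SE 0.36, adjusted p = 0.000164), 1.85 (SE 0.31, adjusted p = 0.000146) and 2.08 (SE 0.36, adjusted p = 0.000166). In partial cells it was Ifi203, of the Ifi200 family, at 2.60 (SE 0.28, adjusted p = 2.13e-06). Between 2i converted and partial cells 3 of the 30 rose and 8 fell, where 9.36% and 13% of all genes did, and the differences ran from Mov10, an RNA helicase, at 1.40 (SE 0.19, adjusted p = 2.88e-05) to Samd9l at -2.01 (SE 0.42, adjusted p = 0.00179).

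Of 19 further antigen presentation genes, 2 rose and 4 fell in 2i converted, 6 rose and 1 fell in partial, 4 rose and 4 fell in full iPS and 5 rose and 4 fell in J1 cells, against MEFs, where 19.6%, 13.7%, 17.1% and 20.6% of all genes rose and 17.9%, 10%, 17.8% and 17.5% fell. The counts in 2i converted, full iPS and J1 cells are near these shares and are no result about the list. Tapbp, which helps load peptides on class I molecules, was at 7.58, 7.88 and 7.58 in partial and 6.22, 6.12 and 6.95 in MEF arrays, a rise of 1.25 (SE 0.21, adjusted p = 0.000208). Against full iPS cells it was higher by 0.97 (SE 0.18, adjusted p = 0.000765). Erap1, which trims the peptides, was at 3.98, 3.76 and 3.85 in 2i converted and 5.38, 5.47 and 5.08 in partial arrays and fell by 1.45 (SE 0.14, adjusted p = 7.78e-07) in 2i converted against partial cells. Nlrc5, the transactivator of class I genes, read 6.03 to 6.77 on feeder-grown and 6.34 to 6.45 on MEF arrays and was called in none of the 9 comparisons. The array held 19 probe sets annotated to Nlrc5 alone, of which only the one with the highest mean was read. H2-Q4, a non-classical class I gene whose probes may also bind its close relatives, rose by 1.09 (SE 0.21, adjusted p = 0.000391) in 2i converted and 1.45 (SE 0.18, adjusted p = 6.38e-06) in full iPS cells.

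Within the feeder-grown groups the interferon genes varied with feeder signal. A slope of each gene on feeder signal was fitted by limma over the 15 feeder-grown arrays with 1 mean per group, an analysis chosen after seeing the data. It was positive at an adjusted p under 0.05 for 21 of the 36 genes, against 9.44% of all genes, and negative for 3, against 6.56%. The median slope was 0.31 log2 units per log2 unit of feeder signal, against -0.01 over all genes. Ifit1 had the steepest slope, 1.60 (SE 0.10, adjusted p = 1.58e-09), followed by Ifit3 at 1.34 (SE 0.12), Cxcl10 at 1.18 (SE 0.13), Gbp3, a guanylate-binding protein, at 0.87 (SE 0.09) and Usp18 at 0.84 (SE 0.10).

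The genes with a negative slope were Ifitm1 at -0.51 (SE 0.07, adjusted p = 2.44e-05), Oas3 at -0.34 (SE 0.10, adjusted p = 0.0269) and Psmb9 at -0.22 (SE 0.06, adjusted p = 0.0145). Among the abundant genes B2m had a slope of 0.41 (SE 0.10, adjusted p = 0.00501) and Ifitm3 one of 0.57 (SE 0.11, adjusted p = 0.000816). The MEF arrays, outside this fit, had the highest feeder signal of all. Ifit1 was 3.39 to 4.11 on MEF arrays, where feeder signal was 8.83 to 9.01, and 7.19 on EOS3F-29 replicate 1, where it was 8.07.

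**Figure D4:**
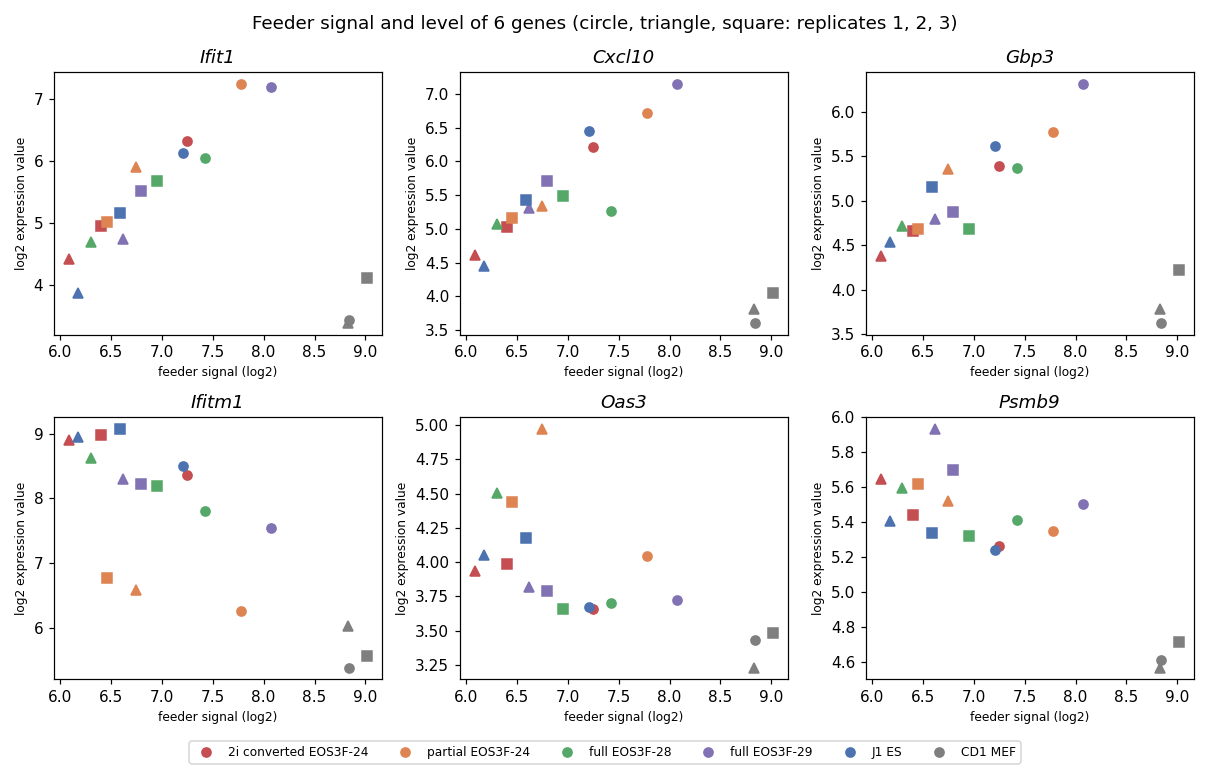
Log2 expression value (y axis) against feeder signal, the mean log2 value of 24 fibroblast genes (x axis), for 6 genes on all 18 arrays, coloured by group with the symbol marking the replicate number. Ifit1, Cxcl10 and Gbp3 climb with feeder signal among feeder-grown arrays, and the MEF arrays lie at the lower right in every panel.

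Feeder signal was highest in replicate 1 of every feeder-grown group, so its part and that of the replicate number cannot be told apart in full. The replicate 1 array was the highest of its group in all 5 feeder-grown groups for 10 of the 36 genes, against 5.11% of all genes: Ifit1, Ifit3, Irf7, Ifih1, Ifi35, Usp18, Gbp3, Xaf1, Psmb8 and Tap2. For Ifitm1, Oas2, Oas3 and Psmb9 it was the highest in none. With the replicate number as a block, Ifit1 was the 1 gene with a positive call, at 1.91 (SE 0.32, adjusted p = 0.0288), and 32 of 36 slopes were positive. Without the 5 replicate 1 arrays Ifit1 was again the 1 gene called, at 2.14 (SE 0.29, adjusted p = 0.00772), and 24 of 36 slopes were positive. Of all genes, 0.0702% and 0.316% had a positive call in these 2 fits. The median slope was 0.38 and 0.17 for the 36 genes, and 0.07 and 0.01 over all genes. The share of positive slopes over all genes was not counted.

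**Figure D5:**
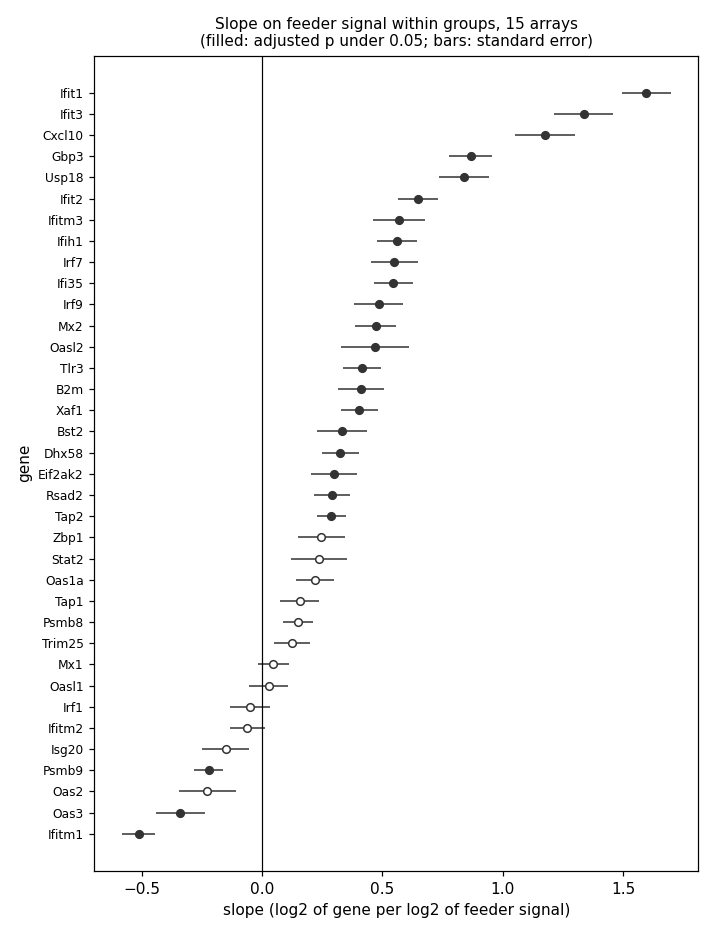
Slope of each of the 36 genes on feeder signal within groups (x axis, log2 units of the gene per log2 unit of feeder signal, with its standard error) over the 15 feeder-grown arrays, sorted by slope. Filled points have an adjusted p under 0.05. The points run from Ifitm1 at -0.51 to Ifit1 at 1.60.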

How the data were processed

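RNA of 18 mouse samples was hybridised to 1-colour arrays after whole-transcript sense target labelling with biotin, per the labels. The authors deposited a log2 value for each probe set. The submitters' processing notes name RMA as the method, which corrects background, equalises the arrays and summarises probes and which compresses differences near background. Neither its version nor a genome build is named there. Arrays carry no read depth, and 3 arrays per group limit the precision.

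Of 34760 probe sets, the platform annotation gives 21640 a single gene symbol and 1321 several, and it lists no symbol for 11799. Each of 19937 genes was represented by its single-symbol probe set with the highest mean, a choice that mattered for 954 genes. The sample labels gave groups and replicate numbers. With limma 3.58.1 (R 4.3.3), lmFit and eBayes were run on 18 arrays with a mean for each group. The 9 contrasts were tested with Benjamini-Hochberg adjustment over all genes and a threshold of 0.05, and the procedure was tested on simulated data.

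The members and lists were chosen with earlier results of these data known. Differences with their error are given for the 6 largest called rises and falls among the members of each comparison and, whether called or not, for Ifit1, Ifitm1, Ifitm2, Ifitm3, Irf1, Irf9, Stat2, Tlr3, Psmb8, Tap1 and B2m. Of the other lists, the largest called rise or fall of a comparison and Ifnb1, Ifnar1, Ifnar2 and Nlrc5 are given. Members shown by level alone, and those named in the feeder signal and covariate results, were picked with their values in view.

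To see if replicate numbers pair arrays, deviations from group means were correlated over genes. All 3 correlations exceeded 0.1 for 2i converted against partial cells (0.383, 0.140 and 0.122) and for EOS3F-28 against EOS3F-29 (0.542, 0.639 and 0.149). For replicates 1, 2 and 3 the correlations were 0.435, 0.352 and 0.067 for partial against full iPS cells. They were 0.629, 0.506 and -0.100 for 2i converted against full iPS cells, and 0.613, 0.483 and -0.114 for full iPS against J1 cells. These comparisons missed the rule through replicate 3 alone. Comparisons with MEFs ran from -0.137 to 0.155. The labels state no such pairing. Alternatives were cyclic loess, centring on 12 housekeeping genes, the mean of a gene's probe sets, all probe sets tested, genes with a mean under 5 left out, only the arrays compared, a trended robust fit, the replicate block, each array left out, feeder signal as a covariate and either full line alone.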

Additional observations from a re-analysis of the deposited data

Results flagged for a closer look

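The difference from MEFs was not the same in partial and full iPS cells for 5 genes, by limma's test of the contrast between these cells. The contrast, partial minus full iPS, was -1.57 for Ifitm1, -0.423 for Oas1a, -0.415 for Trim25, 0.442 for Tap1 and 0.621 for Oas3. Against MEFs, Ifitm1 differed by 0.87 in partial and 2.45 in full iPS cells, Oas1a by 0.81 and 1.23, Trim25 by 0.66 and 1.07, Tap1 by 0.99 and 0.55, and Oas3 by 1.10 and 0.48, where the last value did not pass the test. The contrast of Tap1 lost its call in 8 of the 9 fits without 1 array, that of Oas1a in 7, of Oas3 in 4 and of Trim25 in 2, while Ifitm1 kept it in all 9. Irf1 differed from MEFs by 0.50 in full iPS and 0.07 in J1 cells, and the contrast of full iPS minus J1 was 0.435, lost in 6 of 9 such fits.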

How the results depend on the processing

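No called difference of a named gene changed its direction under the alternative settings, but single probe sets not used for a gene did so: Irf1 in full iPS against J1 cells was at -0.04 against 0.44, and Ifitm2 in full iPS cells against MEFs at -0.01 against 0.33. Arrays of 1 replicate number were left out of all feeder-grown groups together. Counts of the 36 genes called that moved by over 1.5 times are given here, each against its value in the report. The number called over all genes moved with the setting too, so a changed count is no result about the 36 genes. For full iPS against J1 cells (1) the count was 2 with cyclic loess, 0 with the mean of probe sets, with all probe sets tested, with only the arrays compared, with the trended robust fit, with EOS3F-28 alone, with EOS3F-29 alone and without all replicate 2 or all replicate 3 arrays, 3 with the replicate block and without all replicate 1 arrays, and 8 with feeder signal as a covariate. For 2i converted against partial cells (7) it was 13 with housekeeping centring, 4 with all probe sets tested, 12 with the replicate block, 2 without all replicate 2 arrays and 1 without all replicate 3 arrays. For partial against full iPS cells (5) it was 2 with all probe sets tested, without all replicate 2 arrays and with EOS3F-28 alone, 10 with the replicate block, 11 without all replicate 1 arrays, 1 without all replicate 3 arrays and 14 with the covariate. For 2i converted against full iPS cells (0) it was 1 with housekeeping centring and with EOS3F-28 alone, 2 with the replicate block and without all replicate 1 arrays, and 4 with the covariate. For EOS3F-28 against EOS3F-29 (0) it was 1 with housekeeping centring, the replicate block and the covariate, the gene being Bst2 under the last 2. With genes under a mean of 5 left out, 19 of the 36 were tested and 15 called in partial cells, 14 in full iPS and 14 in J1 cells against MEFs, 3 in partial against full iPS cells, 1 in 2i converted against full iPS cells and 2 in full iPS against J1 cells; fewer genes were tested there. Of the 7466 genes tested there, 2811, 4306, 4600, 2274, 888 and 655 were called in the same order. For 2i converted cells against MEFs (21) the count was 13 without all replicate 3 arrays, with 5493 of all genes called against 7467. For 2i converted against full iPS cells 1029 of all genes were called in the main fit and 1425 with the covariate. Between the full lines these numbers were 106 and 289. Over all genes, full iPS against J1 cells had 949 calls in the main fit, 1596 with the block and 1451 with the covariate. Without all replicate 1, 2 or 3 arrays it had 671, 559 and 83. Partial against full iPS cells had 3702, 4360, 4901, 4037, 1805 and 1493 in the same order. For 2i converted against partial cells it was 4456, and 5226 with the block. Without all replicate 2 or 3 arrays it was 2424 and 2385. The cause of the other shifts was not tested. Leaving out each array in turn gave 13 to 19 in 2i converted, 19 to 25 in partial, 21 to 25 in full iPS and 15 to 23 in J1 cells against MEFs, 2 to 5 in 2i converted against partial, 1 to 11 in partial against full iPS, 0 to 2 in 2i converted against full iPS, 0 to 3 in full iPS against J1 cells and 0 to 1 between the full lines. For the positive feeder slopes (21) the replicate block gave 1, leaving out all replicate 1 arrays gave 1, and leaving out replicate 2 or 3 arrays gave 19 each. Housekeeping centring moved the median of all genes by -0.16 in 2i converted cells against MEFs and -0.15 against full iPS cells. Deviations went with replicate number in all 3 replicates in only 2 comparisons. In the other comparisons without MEFs they did so in replicates 1 and 2 but not in replicate 3. The labels state no pairing, and the block was a shift shared by all groups. The block is therefore an arithmetical alternative in every comparison. Genes near the bottom of the scale, such as Mx1, Mx2, Tlr3 and Oas3, have differences that RMA compresses.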
